A study of Mus musculus with 2 samples.

Results

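The genes described here are 10 enzymes and cofactors that silence chromatin: Dnmt1, Uhrf1, Hells, Dnmt3a, Dnmt3b, Ezh2, Eed, Suz12, Hdac1 and Hdac2. They were taken by name, and all 10 were found among the 43346 mouse gene identifiers in the tables of both libraries. The RNA came from whole thymus of newborn B6NCrl mice at postnatal day 0, with 13 pg of total RNA longer than 200 nt put into each library. The labels title the assay single cell RNA-seq and give that amount as 1 cell-equivalent, while listing the material as tissue. Replicate 1 was pup 6 and replicate 2 was pup 7 of a C57/Bl6 female from Charles River, and the labels list 1 donor for both. Both libraries belong to 1 group with no treatment named, so no conditions could be tested, and values are given for each pup and as mean ± SD of 2. The labels call them biological replicates, and their spread joins the pup with the handling of its RNA. In tissue RNA, fewer cells of a type and less RNA per cell cannot be told apart.

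DNA methylation silences genes and repeats and has to be copied each time a cell divides. DNMT1 copies it, guided to newly made DNA by UHRF1, and the remodeller HELLS opens chromatin for it, while DNMT3A and DNMT3B write methylation on unmarked DNA. Polycomb repressive complex 2 (PRC2) methylates histone H3 through its enzyme EZH2, which needs its partners EED and SUZ12, and the deacetylases HDAC1 and HDAC2 strip acetyl groups from histones. In the thymus these enzymes act in fast-dividing T-cell precursors, where they keep genes of other lineages and stages silent.

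Promoters of 7 genes are shown first, chosen by the values given below. Of these genes, Ezh2, Eed, Hells and Dnmt3a differed by 4-fold or more between the pups. Dnmt1, Uhrf1 and Dnmt3a had counts assigned to more than 1 annotated start, and Suz12 changed direction with the scale. The second upstream start of Dnmt3a, 180 bases after the first, and the third of Dnmt1 are left out. The sequences are from RefSeq on GRCm38.p6 and run from 250 bases before to 50 after a start, and the table held 14 such windows for 9 of the 10 genes. Capitals mark a word of the consensus of E2F, the factor family that switches on genes for DNA replication, spelled TTTCCCGC, TTTCGCGC, TTTGCCGC or TTTGGCGC and searched on both strands.
Ezh2, chr6:47594981-47595280, minus strand: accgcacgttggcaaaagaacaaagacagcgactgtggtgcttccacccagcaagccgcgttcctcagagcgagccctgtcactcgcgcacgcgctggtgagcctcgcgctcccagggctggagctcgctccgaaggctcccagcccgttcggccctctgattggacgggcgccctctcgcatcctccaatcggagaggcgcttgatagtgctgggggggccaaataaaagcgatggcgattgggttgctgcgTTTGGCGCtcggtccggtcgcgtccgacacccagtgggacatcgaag
Eed, chr7:89980927-89981226, minus strand: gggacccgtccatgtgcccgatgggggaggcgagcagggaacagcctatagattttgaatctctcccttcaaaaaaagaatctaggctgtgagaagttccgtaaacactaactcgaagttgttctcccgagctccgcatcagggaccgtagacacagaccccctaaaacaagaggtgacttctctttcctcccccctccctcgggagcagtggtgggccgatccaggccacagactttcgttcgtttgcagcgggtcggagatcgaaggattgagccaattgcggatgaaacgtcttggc
Suz12, chr11:79992856-79993155, plus strand: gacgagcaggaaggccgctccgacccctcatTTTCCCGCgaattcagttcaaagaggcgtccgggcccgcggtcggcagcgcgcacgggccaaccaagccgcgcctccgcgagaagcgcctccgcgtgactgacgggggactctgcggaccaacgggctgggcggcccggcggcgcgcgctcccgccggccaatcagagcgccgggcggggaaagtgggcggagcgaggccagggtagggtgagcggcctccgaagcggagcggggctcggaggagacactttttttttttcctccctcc
Hells, chr19:38930740-38931039, plus strand: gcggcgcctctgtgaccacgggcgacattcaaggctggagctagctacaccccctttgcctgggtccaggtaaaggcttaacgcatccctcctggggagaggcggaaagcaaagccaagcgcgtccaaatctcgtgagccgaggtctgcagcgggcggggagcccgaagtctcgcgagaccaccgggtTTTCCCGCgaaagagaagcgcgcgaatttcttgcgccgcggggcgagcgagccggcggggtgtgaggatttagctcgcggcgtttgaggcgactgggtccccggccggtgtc
Dnmt1, the first start, chr9:20959839-20960138, minus strand: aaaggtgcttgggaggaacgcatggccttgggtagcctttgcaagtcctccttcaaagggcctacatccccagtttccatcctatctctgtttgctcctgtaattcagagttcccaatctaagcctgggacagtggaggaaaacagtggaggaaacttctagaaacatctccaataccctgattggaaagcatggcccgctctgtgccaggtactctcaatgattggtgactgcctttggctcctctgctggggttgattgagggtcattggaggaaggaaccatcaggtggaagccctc
Dnmt1, the second start, chr9:20952930-20953229, minus strand: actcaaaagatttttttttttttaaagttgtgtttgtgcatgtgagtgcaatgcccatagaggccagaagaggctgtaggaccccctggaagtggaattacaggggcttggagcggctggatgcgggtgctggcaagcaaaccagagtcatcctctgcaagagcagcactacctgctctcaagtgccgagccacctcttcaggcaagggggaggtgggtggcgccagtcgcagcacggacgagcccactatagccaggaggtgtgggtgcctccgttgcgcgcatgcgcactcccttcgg
Uhrf1, the first start, chr17:56303087-56303386, plus strand: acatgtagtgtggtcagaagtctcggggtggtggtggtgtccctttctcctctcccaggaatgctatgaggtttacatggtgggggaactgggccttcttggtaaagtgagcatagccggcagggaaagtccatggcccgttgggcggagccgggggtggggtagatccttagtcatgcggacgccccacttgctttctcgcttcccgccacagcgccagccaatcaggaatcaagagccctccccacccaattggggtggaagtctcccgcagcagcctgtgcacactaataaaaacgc
Uhrf1, the second start, chr17:56304063-56304362, plus strand: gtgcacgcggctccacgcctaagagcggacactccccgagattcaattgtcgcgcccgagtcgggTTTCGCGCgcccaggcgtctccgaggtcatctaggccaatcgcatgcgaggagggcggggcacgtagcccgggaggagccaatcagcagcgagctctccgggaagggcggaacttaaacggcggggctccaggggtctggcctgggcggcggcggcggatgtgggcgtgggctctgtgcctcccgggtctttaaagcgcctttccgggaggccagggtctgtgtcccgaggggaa
Dnmt3a, the first upstream start, chr12:3806730-3807029, plus strand: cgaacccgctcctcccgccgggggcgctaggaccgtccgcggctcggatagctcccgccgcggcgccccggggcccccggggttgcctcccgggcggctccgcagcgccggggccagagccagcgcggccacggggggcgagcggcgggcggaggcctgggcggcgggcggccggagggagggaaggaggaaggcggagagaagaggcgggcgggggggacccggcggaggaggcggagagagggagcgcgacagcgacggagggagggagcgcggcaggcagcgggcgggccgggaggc
Dnmt3a, the internal start, chr12:3891494-3891793, plus strand: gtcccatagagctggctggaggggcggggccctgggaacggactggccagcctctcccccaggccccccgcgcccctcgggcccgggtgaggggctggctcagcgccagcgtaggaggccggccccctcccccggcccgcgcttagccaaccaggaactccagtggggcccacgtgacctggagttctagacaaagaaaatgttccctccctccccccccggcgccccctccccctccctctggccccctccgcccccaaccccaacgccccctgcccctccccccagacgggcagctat

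An E2F word stood in 5 of the 14 windows, 1 each of Ezh2, Suz12, Hells, Uhrf1 and Dnmt1, against 2.26% of all 32851 promoter windows. The word lay 3 bases after the start in Ezh2 and 62 bases before it in Hells. In Suz12 it lay 219 bases before the start and in the second Uhrf1 window 185 before it. No word stood in the windows of Eed, the first and second Dnmt1 starts, the first Uhrf1 start or Dnmt3a. The Dnmt1 window with one was the third and most downstream start of that gene and held a word on each strand. GGGCGG was in 10 of the 14 windows (35.7% of all windows) and CCAAT in 7 (37.4% of all windows), and no match of 1 motif overlapped a match of another. The windows held between 2 and 47 CG pairs, and 13 of the 14 lay above the median of 7 over all windows. A match is a description of letters and not a binding site.

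The libraries held 25999043 mouse counts in replicate 1 and 31902773 in replicate 2, where a count is an estimated number of reads. The thymus label was checked with 8 T-cell genes. All 8 were read in both pups, with sums of 5459 and 5313 TPM (TPM, transcripts per 1000000, is a level corrected for length and depth). Epithelial genes summed to 2548 and 2635 TPM, whereas the B-cell markers Cd79a and Ms4a1 had between 0 and 2 counts. The sum of 5 erythroid genes was 3527 TPM in the first pup and 9132 in the second, and that of 5 heart and skeletal muscle genes was 1236 and 372 TPM. Macrophage genes summed to 364.1 and 360.4 TPM and mesenchyme genes to 341.3 and 536.6 TPM. Similar sums hid genes that differed in opposite directions. Of 5 macrophage genes, 3 were higher in replicate 1 and 2 in replicate 2, with Adgre1 at 2630 and 0 counts and C1qc at 12 and 610. Of 6 epithelial genes, 3 were higher in each pup, and Foxn1 had 0 and 1129 counts. Pdgfra of the mesenchyme list had 1 and 0 counts. The part of those cell types in the differences below was not tested.

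The repressor genes together reached 729.6 TPM in replicate 1 and 473.8 in replicate 2 (601.7 ± 180.9, SD, n = 2). At 1 or more counts, 8 of the 10 were read in both libraries, and Ezh2 and Eed were read in replicate 2 alone. Of all 43346 mouse gene identifiers, 10275 were read in replicate 1 and 11764 in replicate 2. The share read in both was not taken over all mouse genes, so this and the detection counts of the lists below are descriptions. The maintenance genes Dnmt1, Uhrf1 and Hells summed to 263.8 and 110.7 TPM, and all 3 were higher in replicate 1. The PRC2 genes were higher in replicate 2 as a sum, at 65.1 and 183.6 TPM, and 2 of the 3 had no reads in replicate 1. The deacetylases summed to 282.1 and 176.8 TPM and were the most abundant of the roles by mean, although in replicate 2 the PRC2 sum was higher. That order counts all annotated forms, and noncoding retained-intron forms made 46.5% of Hdac1 TPM in replicate 1. It was not taken for coding forms alone.

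**Figure D1:**
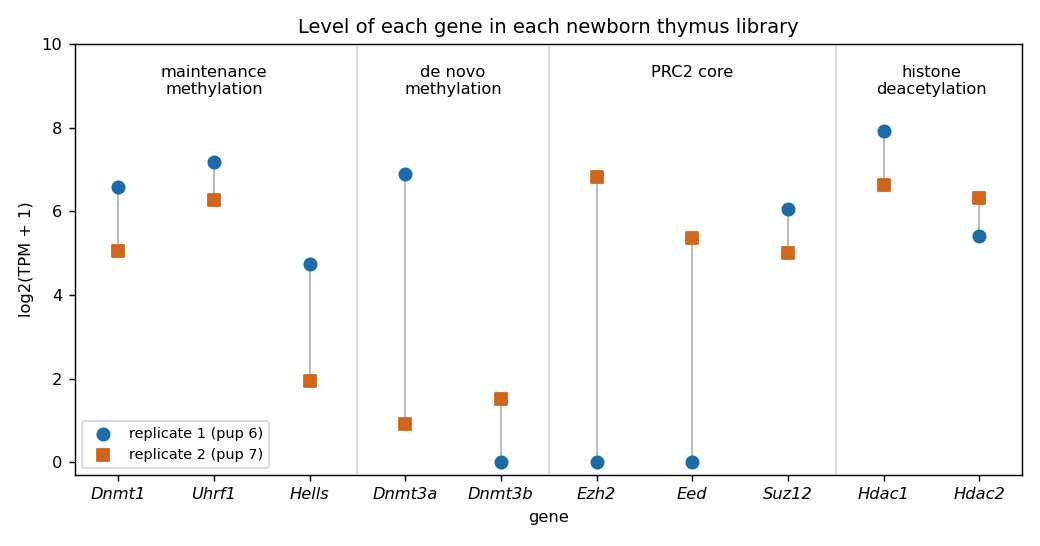
Level of each of the 10 genes as log2(TPM + 1), with a circle for replicate 1, a square for replicate 2 and a line joining the pair. Ezh2 and Eed sit at 0 in replicate 1, Dnmt3a stands at 118.5 and 0.876 TPM, and Hdac1 and Uhrf1 are the highest by mean.

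Dnmt1, the maintenance methyltransferase (chromosome 9, 20907209 to 20959888, minus strand), had 10039 counts in replicate 1 and 3885 in replicate 2, or 94.3 and 32.3 TPM. Its log2 ratio of replicate 2 over replicate 1, taken throughout on TPM + 1, was -1.52. Uhrf1, its guide to replicating DNA (chromosome 17, 56303321 to 56323486, plus strand), had 9040 and 5985 counts, or 143.6 and 75.6 TPM, a log2 ratio of -0.92. Both genes were thus well read in each pup and lower in replicate 2. Uhrf1 exceeded Dnmt1 in both libraries, by 1.52 and 2.34 times on the TPM scale. Hells, the chromatin remodeller (chromosome 19, 38930915 to 38971051, plus strand), was far lower, with 3057 and 377 counts, or 25.9 and 2.83 TPM, a log2 ratio of -2.81. All of its counts fell on 1 transcript, Hells-201, in both libraries.

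Dnmt3a and Dnmt3b, the enzymes of new methylation, were each concentrated in a different pup. Dnmt3a (chromosome 12, 3806007 to 3914443, plus strand) had 8540 counts in replicate 1 and 143 in replicate 2, or 118.5 and 0.876 TPM. Its log2 ratio of -5.99 was the lowest of the 10 genes. Among all genes read, its level ranked 1678 of 10275 in replicate 1 and 8684 of 11764 in replicate 2. Dnmt3b (chromosome 2, 153649450 to 153687730, plus strand) had 1 count and 163 counts, or 0.0107 and 1.83 TPM. Scaled to library size that is a ratio of 132.8 (95% exact counting interval 23.5 to 5279), which covers counting error only. Dnmt3b was the lowest of the 10 genes by mean, and the sole one whose range did not overlap that of its neighbour in the order of levels. In replicate 1 Dnmt3a was thus far above Dnmt3b. In replicate 2 both had few counts, and their order was not settled. Dnmt3a was lower there in TPM, but posterior mean TPM was 1.93 for Dnmt3a and 1.99 for Dnmt3b.

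The PRC2 core was read completely in replicate 2 alone. Ezh2, the methyltransferase subunit, lies on chromosome 6 at 47530139 to 47595341 on the minus strand. It was given 0 counts in replicate 1 and 6356 in replicate 2, where it stood at 112.4 TPM. A count of 0 is compatible with up to 3 counts at 95% confidence, and measured against 3 counts per library Ezh2 was at least 1726.6-fold higher in replicate 2. Eed, which binds the finished mark, lies on chromosome 7 at 89954654 to 89980983 on the minus strand. It was given 0 and 1823 counts and stood at 40.2 TPM in replicate 2, at least 495-fold higher. Both bounds hold for the reads of these libraries and not for expression in the tissue. Suz12, the scaffold subunit (chromosome 11, 79993106 to 80034123, plus strand), was read in both, with 1951 and 3014 counts. In replicate 2, where all 3 were read, the order on the TPM scale was Ezh2, Eed and Suz12, at 112.4, 40.2 and 31.0.

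For Suz12 the higher pup depended on the scale. In TPM it was higher in replicate 1, at 65.1 against 31.0, a log2 ratio of -1.04. Per 1000000 mouse counts it was higher in replicate 2, at 75.0 counts in replicate 1 and 94.5 in replicate 2, a log2 ratio of 0.33. In replicate 1, 504 of its counts were assigned to Suz12-205, an annotated retained-intron transcript of 611 bases, which then made 74.0% of the gene's TPM and 25.8% of its counts. In replicate 2 all counts lay on Suz12-206, the coding transcript of 4303 bases, and the effective length of the gene was 1466 bases in replicate 1 and 4204 in replicate 2. Counts on Suz12-206 alone were 1446 and 3014. The long noncoding gene Gm26563 lies on the opposite strand and shares 178 exon bases with Suz12. It had 1 count in replicate 1 and 870 in replicate 2, and whether reads were counted by strand is not given in the sources used here.

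Hdac1 (chromosome 4, 129516104 to 129542713, minus strand) was the most abundant of the 10 by mean TPM over all its annotated forms. Hdac1 had 6730 and 4039 counts, or 240.8 and 98.4 TPM, a log2 ratio of -1.28. In replicate 2 it was below Ezh2, which stood at 112.4 TPM. Hdac2, its close relative in the same complexes (chromosome 10, 36974544 to 37001889, plus strand), was higher in replicate 2, with 1608 and 2845 counts, or 41.3 and 78.4 TPM, a log2 ratio of 0.91. Hdac1 therefore exceeded Hdac2 by 5.83 times in replicate 1 and by 1.25 times in replicate 2 on the TPM scale. These ratios count all forms, and retained-intron forms made 46.5% of Hdac1 TPM in replicate 1 and 13.0% in replicate 2. The coding forms Hdac1-201 and Hdac2-201 stood at 128.9 and 41.3 TPM in replicate 1 and at 85.6 and 54.5 in replicate 2. In replicate 1 coding Hdac1-201 was thus below Uhrf1, at 143.6 TPM. The range of Hdac1, 98.4 to 240.8 TPM, lay above that of Hdac2, 41.3 to 78.4 TPM. Hdac1 has a processed pseudogene, Gm10093, that matches it over 1444 bases at 99.4% identity and was given 72 and 59 counts. The split of reads with that copy is the authors' estimate, whose posterior SD for Hdac1 was 9.15 of 6730 counts and 8.76 of 4039. Gm4864 (1469 bases at 94.6% identity) and AC125456.1 (1450 bases at 96.3%) also match Hdac1 but were not among the genes quantified. The posterior SD does not cover reads from them.

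By mean level the order was Hdac1 (169.6 ± 100.7 TPM), Uhrf1 (109.6 ± 48.1), Dnmt1 (63.3 ± 43.9), Hdac2 (59.8 ± 26.2), Dnmt3a (59.7 ± 83.2), Ezh2 (56.2 ± 79.5), Suz12 (48.1 ± 24.1), Eed (20.1 ± 28.4), Hells (14.4 ± 16.3) and Dnmt3b (0.919 ± 1.28). The ranges of every pair of neighbours down to Hells overlapped. All annotated forms are counted in this order, and retained-intron forms made 46.5% of Hdac1 TPM and 74.2% of Suz12 TPM in replicate 1. For Dnmt3a, Ezh2, Eed, Hells and Dnmt3b the SD exceeded the mean, so the mean describes neither pup.

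Several genes had counts assigned to more than 1 annotated start or transcript form. The names and types are those of GENCODE M21, and the split between forms that share exons is the authors' estimate. Uhrf1 transcripts of the first start (Uhrf1-201 and Uhrf1-203) had 4533 counts in replicate 1 and 4372 in replicate 2. Those of the second start, 976 bases downstream and with the E2F word shown above, had 4503 and 1609. The first start thus took 50.1% of the gene's counts in replicate 1 and 73.1% in replicate 2. Per 1000000 mouse counts the first start had 174.4 and 137.0 counts and the second 173.2 and 50.4, so by this split the second differed more between the pups. Uhrf1-203 alone went from 2382 counts in replicate 1 to 0 in replicate 2. Reads particular to either start were not examined, so the split does not settle which start was used. The leading transcript of the gene was Uhrf1-204 in replicate 1 and Uhrf1-201 in replicate 2, both with 782 codons.

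Dnmt1 counts were assigned almost evenly to 2 forms, and alike in both pups. Both forms have 39 exons, and reads particular to either start were not examined, so the split does not settle which start was used. Dnmt1-201, with 1620 codons, took 50.1% and 52.5% of counts, and Dnmt1-202, annotated from a start 6909 bases further upstream with 1501 codons, took 49.9% and 47.5%. The third start, 356 bases downstream of that of Dnmt1-201 and the one with E2F words, had 6 counts and 0. Dnmt3a has upstream starts for a protein of 908 codons and an internal start 84764 bases downstream for one of 689 codons, and the windows above show the GC-rich first upstream start and the internal one. In replicate 1 the upstream transcripts had 6013 counts (70.4%) and the internal ones 1983 (23.2%). In replicate 2 they had 80 (55.8%) and 63 (44.2%), which are few counts. The upstream counts were on Dnmt3a-218 in replicate 1 and on Dnmt3a-201 in replicate 2. Dnmt3a-218 begins at the second upstream start, whose window was left out above, and Dnmt3a-201 near the first. The first upstream window shown is thus not that of the upstream counts of replicate 1. On the TPM scale the leading form in replicate 1 was instead Dnmt3a-210, a short annotated transcript of 501 bases with 393 counts.

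Ezh2 in replicate 2 was spread over 6 of its 12 annotated transcripts, of which Ezh2-203 took 62.8% of counts, Ezh2-204 33.7% and Ezh2-202 3.03%. Ezh2-203 and Ezh2-204 share the start shown above. Eed counts lay wholly on Eed-201. The 163 Dnmt3b counts of replicate 2 were all assigned to Dnmt3b-206, but by posterior mean TPM that form had 31.0% and Dnmt3b-208 22.5%, so these counts do not settle the form. In Hdac1 the coding transcript Hdac1-201 had 75.9% of counts in replicate 1 and 94.8% in replicate 2, and annotated retained introns had the rest. Retained-intron forms made up 46.5% of Hdac1 TPM in replicate 1. In Hdac2 the coding Hdac2-201 held all counts in replicate 1 and 84.3% in replicate 2, with 15.7% on the noncoding Hdac2-204.

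**Figure D2:**
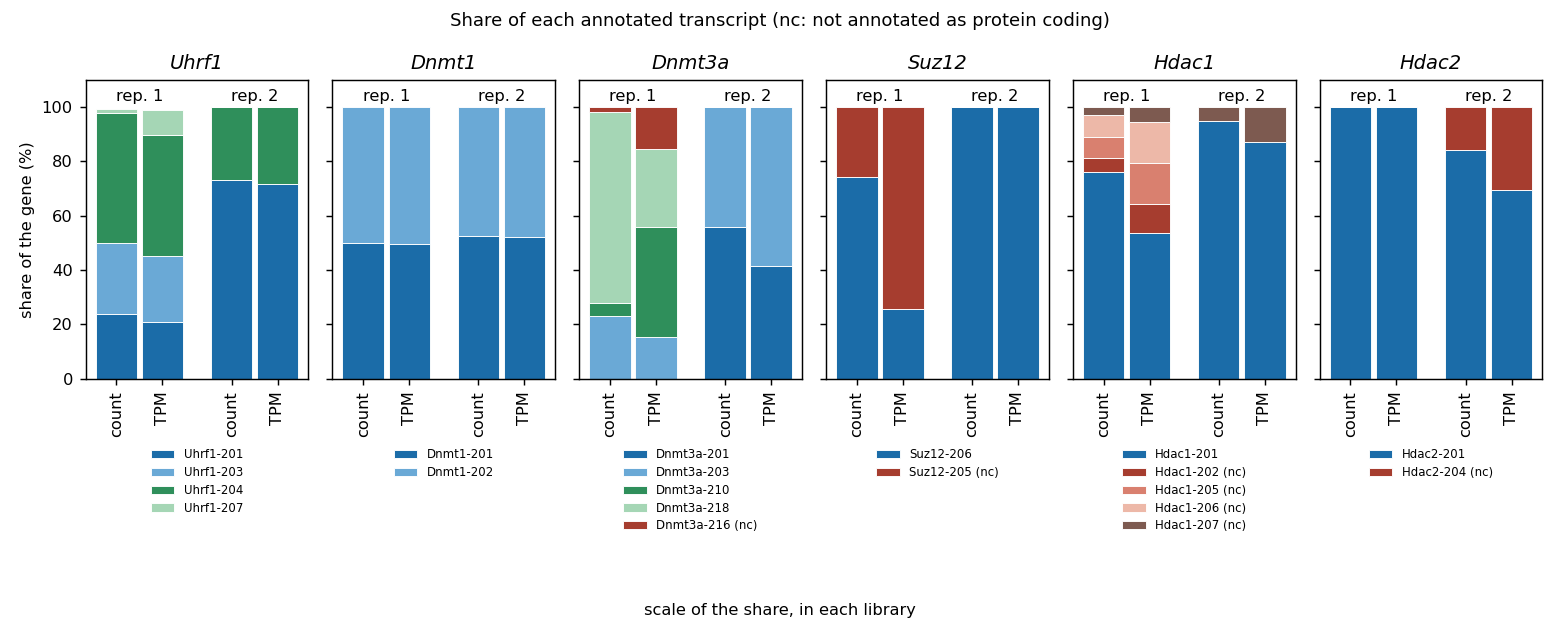
Share of each annotated transcript in the counts and in the TPM of 6 genes, as stacked percentages for replicate 1 and replicate 2; forms under 2% on every scale are left out. Suz12-205 makes 25.8% of counts but 74.0% of TPM in replicate 1, and Uhrf1-201 has 23.8% of counts in replicate 1 and 73.1% in replicate 2.

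The differences between the pups were set beside those of all mouse genes. Of the 10 genes, 9 reached a mean count of 100, Dnmt3b being the exception. Of these 9, 4 differed at least 4-fold in TPM + 1 between the pups, against 50.9% of the 9341 mouse genes with as many counts. Hells and Dnmt3a were higher in replicate 1 (background 21.5%), and Ezh2 and Eed were higher in replicate 2 (background 29.4%). Ezh2 and Eed were also the 2 of the 9 with 3 or fewer counts in 1 library, against 35.1% of all such genes. These shares are near the background, so the spread of the 10 genes is not a result about them. Their median log2 ratio was -1.04, beside 0.17 over all 9341 genes. That median is the value of Suz12 itself, whose direction changed with the scale. Of the 9, 6 were higher in replicate 1 in TPM, or 5 in counts because of Suz12.

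The share of genes with 3 or fewer counts in at least 1 library was higher in each lower class of mean level. The class is set by the mean of the same libraries, so a gene unread in 1 of them falls to a lower class. Part of this trend therefore follows from the classing, and Ezh2, at 112.4 TPM in replicate 2, is classed below 100 TPM. In the class of 50 to 100 TPM, with 1650 genes, this share was 13.5%, and 31.5% differed 4-fold. Ezh2 was in the first group, and Ezh2 and Dnmt3a were in the second, while Dnmt1 and Hdac2 of the same class were in neither. Among the 3211 genes between 5 and 25 TPM, the class of Eed and Hells, the shares were 58.8% and 76.2%. Between 100 and 200 TPM, where Hdac1 and Uhrf1 lie, they were 3.93% and 15.8%, and both genes stayed under 4-fold.

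**Figure D3:**
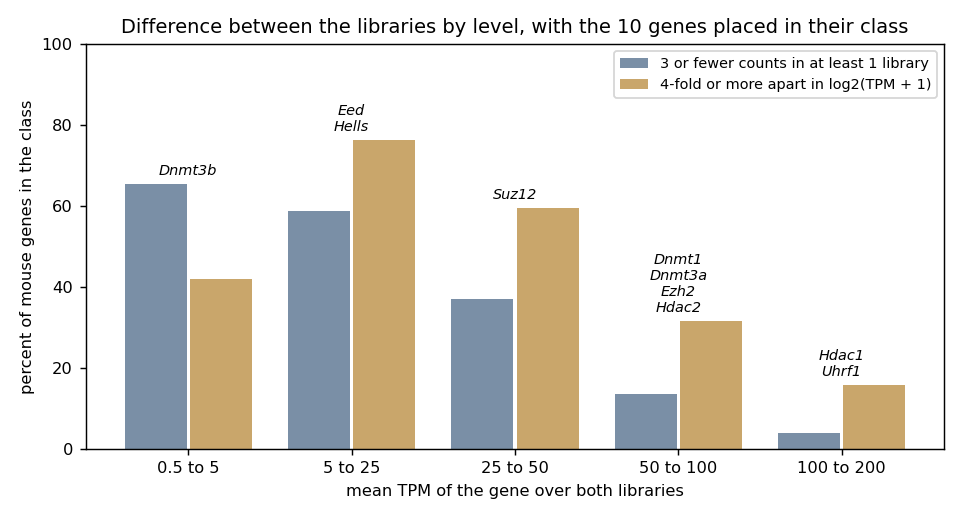
Percent of all mouse genes with 3 or fewer counts in at least 1 library, and percent 4-fold or more apart, by class of mean TPM; the 10 genes are written above their class. The first share falls from 65.4% at 0.5 to 5 TPM to 3.93% at 100 to 200 TPM.

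Partner genes of the same pathways were taken from 8 lists with 83 names, all found in the tables. Of the 83, 54 were read in both libraries, 17 in 1 and 12 in neither. Among the 60 that reached a mean count of 100, 10 were at least 4-fold higher in replicate 1 and 13 in replicate 2, or 23 of 60 beside the 50.9% of all genes. By direction the background is 21.5% for replicate 1 and 29.4% for replicate 2, and with 3 to 14 genes counted in a list, the counts of single lists below are descriptions and not results about a list.

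Among the partners of PRC2 and the demethylases of its mark, 7 of 11 genes were read in both pups. Rbbp4, a histone-binding subunit, stood at 271.3 and 268.8 TPM, and Rbbp7, its close relative, at 78.6 and 198.5. Ezh1, the alternative methyltransferase of the complex, was read in both pups, at 62.5 and 77.7 TPM, so replicate 1 had reads of Ezh1 and none of Ezh2. Mtf2, a subunit that draws PRC2 to CG-rich DNA, had 1445 and 16660 counts, or 93.0 and 489.6 TPM. Aebp2, another accessory subunit, had 0 and 1087 counts, and Phf19 had 246 and 0. Of the 9 that reached a mean count of 100, 3 were at least 4-fold higher in replicate 2 (background 29.4%) and 1 in replicate 1 (21.5%), so 4 of 9 in all beside 50.9%. The median log2 ratio of the 9 was 0.73, beside 0.17 over all genes.

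PRC1, the complex that reads the PRC2 mark, had 5 of 19 genes read in both pups, 8 in 1 and 6 in neither. Rnf2, the catalytic ubiquitin ligase, was the highest at 64.0 and 122.4 TPM. Phc1 and Phc3, related subunits, were each read in a single pup, Phc1 with 0 and 1350 counts and Phc3 with 5144 and 0. Pcgf2 had 0 counts in replicate 1 and 186 in replicate 2. Of the 8 that reached a mean count of 100, 2 were 4-fold higher in replicate 1 (background 21.5%) and 4 in replicate 2 (29.4%). Together these are most of the 8 and lie above the 50.9% of all genes, but 8 genes are too few for a result about the list.

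Among genes of DNA methylation and its removal, Usp7, the protease that stabilises DNMT1 and UHRF1, stood at 131.4 and 111.4 TPM. Tdg, which excises oxidised methylcytosine products, stood at 131.3 and 71.1 TPM. Uhrf2, the relative of Uhrf1, had 0 and 3842 counts, and Tet3, which oxidises methylcytosine, 217 and 4760. Uhrf1 and Uhrf2 thus differed in detection, with Uhrf1 read in both pups. Of the 5 genes of 7 at that mean count, 1 was 4-fold higher in replicate 1 and 2 in replicate 2. Methyl-CpG readers summed to 254.4 and 125.4 TPM. Mbd3 stood at 126.7 and 31.5 TPM and Zbtb38 at 35.6 and 76.1. Mbd1 had 1825 and 4 counts and Mbd4 235 and 0. Of 6 tested readers of 7, 3 were 4-fold higher in replicate 1 (background 21.5%) and none in replicate 2 (29.4%), and 3 of 6 in all stands beside 50.9%. Their median log2 ratio was -2.34, beside 0.17 over all genes.

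The partners of HELLS were led by Cdca7, which recruits it to DNA, at 323.0 and 133.9 TPM. Cdca7 was lower in replicate 2, as was Hells, but by less than 4-fold (log2 ratio -1.26). Zbtb24 stood at 47.5 and 39.9 TPM, and Cdca7l had 0 and 1950 counts.

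Deacetylases other than Hdac1 and Hdac2 were read in both pups for 6 of 9 genes. Hdac7, a class IIa enzyme known from thymocytes, stood at 170.7 and 101.5 TPM, Hdac4 at 79.6 and 104.9, Hdac3 at 76.3 and 70.0 and Hdac6 at 50.7 and 31.6. None of these 4 differed 4-fold, and of the 5 with enough counts 1 was 4-fold higher, in replicate 2; that gene, named after its values were seen, was Hdac10 with 1 and 2141 counts. Of the 16 subunits of the HDAC complexes, 14 were read in both pups. Sin3b, a scaffold for HDAC1 and HDAC2, stood at 403.2 and 421.6 TPM, Mta3 at 172.5 and 104.7, Sap18 at 115.6 and 80.1 and Ncor1 at 55.6 and 139.3. Chd3, a remodeller of the NuRD complex, had 1099 and 0 counts, and Sap30 had 0 and 10. Of the 14 tested, 3 were 4-fold higher in replicate 1 and 1 in replicate 2.

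Genes of H3K9 methylation, another silencing mark, and of its HP1 readers were read in both pups for 10 of 11. Cbx3 stood at 425.1 and 252.3 TPM, Atrx at 124.9 and 246.4, Trim28 at 175.7 and 88.7 and Cbx1 at 172.0 and 86.8. Of 10 tested, 1 was 4-fold higher, in replicate 2; that gene, named after its values were seen, was Suv39h1 at 9.70 and 136.8 TPM.

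**Figure D4:**
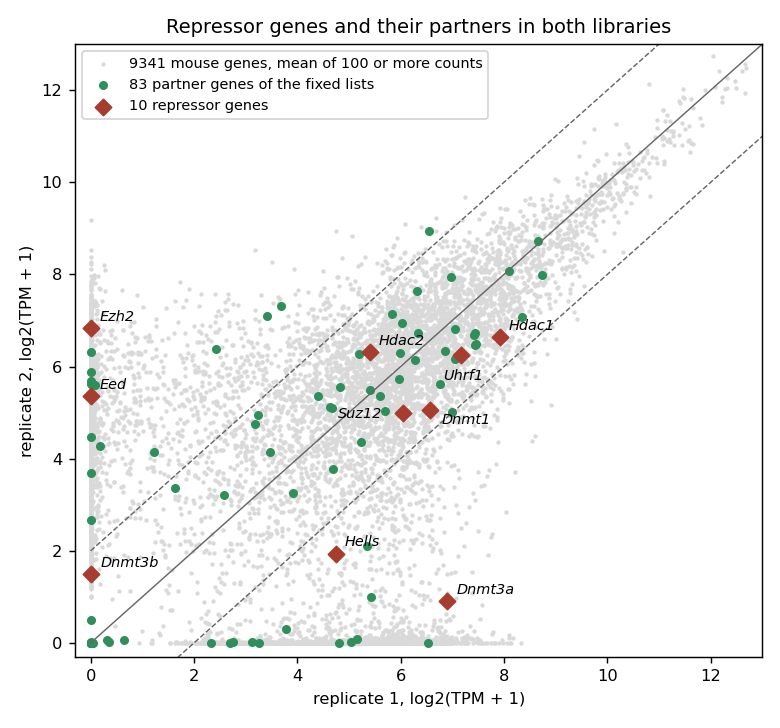
Level in replicate 1 against replicate 2, as log2(TPM + 1), for the 10 repressor genes (diamonds), 83 partner genes (green) and 9341 mouse genes (grey); the solid line marks equality and the dashed lines 4-fold. Ezh2 and Eed lie on the left edge with 0 counts in replicate 1, and Dnmt3a and Hells lie below the lower dashed line.

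Several of the 10 genes are known to rise in dividing cells, so a list of 18 proliferation genes was measured beside them. Its sum was 4067 TPM in the first pup and 3109 in the second, with 15 of the 18 read in both. Pcna, the clamp that holds DNA polymerase and binds DNMT1, stood at 380.5 and 318.0 TPM, Birc5 at 492.3 and 414.2, Ccnb1 at 326.6 and 545.4 and Ccnb2 at 458.1 and 378.4. Cdc6 had 0 and 2349 counts, Tyms 0 and 100 and Gins2 1405 and 0. Of the 17 at a mean count of at least 100, 11 were higher in replicate 1 and 6 in replicate 2. By 4-fold, 2 were higher in replicate 1 (background 21.5%) and 1 in replicate 2 (29.4%). The median log2 ratio was -0.26, beside 0.17 over all genes. The share of all genes higher in each pup was not taken, so these counts are descriptions. The part of proliferation in the lower Dnmt1, Uhrf1 and Hells levels of replicate 2 was not tested.

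Among the genes quantified, reads shared with other genes touched few of the 10. The posterior SD of the deposited count was at most 9.15 counts, for Hdac1 in replicate 1, and 0 for 7 of the genes in both libraries. Uhrf1 has a pseudogene, Gm5648, that matches over 1590 bases at 98.3% identity and was given 9 and 17 counts. Dnmt3c, a relative of Dnmt3b with 93.3% identity over 1655 bases, had 0 counts in both. The antisense genes Dnmt3aos and Dnmt3bos had 0 counts in both libraries.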

How the data were processed

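Thymus RNA of 2 newborn pups was sequenced, with 1 library a pup in 1 group. The files use assembly mm10, per the labels, and annotation M4, per the deposited text notes; aligner and quantifier were not given in the sources used here. The deposited tables give, per gene and transcript, an expected count (estimated reads), TPM and a posterior mean TPM, and other columns with a posterior SD of the count; per the file headers the names are those that RSEM writes.

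Gene IDs were matched without version to GENCODE M21 on GRCm38 (42462 of 43346). TPM was rescaled to 1000000 over mouse genes. Log2 ratios are replicate 2 over replicate 1 of TPM + 1, and a 4-fold difference was counted where the mean count reached 100. With 1 library a pup no p-value is given. Floors and intervals cover counting error only, since reads carried no molecular identifiers in the tables. Spike-ins took 3.72% and 3.27% of counts. Similar transcripts were found with blastn 2.17.0 (90% identity or more). Alternatives used posterior means, other pseudocounts, minimums, folds and detection levels, other TPM totals, shares by count, each library alone, and rounded counts scaled with edgeR 4.0.16 TMM or DESeq2 1.42.0 size factors. The fold rule was run on simulated counts with counting error alone. That run checks the code, and it cannot show how the rule behaves on libraries that differ as much as these. Named partners were up to 4 per list by mean TPM and up to 3 with 0 counts in 1 library and 10 or more in the other; other partners, and the overlapping, antisense and similar genes, were named after their values were seen. The genes and lists were chosen with earlier results of these data known. Some genes of the lists are not reported here by name.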

Additional observations from a re-analysis of the deposited data

How the results depend on the processing

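The summed level of the 10 genes (601.7 TPM) ran from 473.8 without replicate 1 to 729.6 without replicate 2, and stayed within 1 SD under posterior means and other TPM totals. Of the 10 genes, 7 were read in both libraries at more than 3 or at 10 or more counts, and 6 at 1 TPM. The number past 4-fold was 3 or 4 under every other pseudocount, minimum or scaling, but the share of all genes moved. With a pseudocount of 10 it was 3 of 9 beside 27.4%, and with 0.1 it was 4 of 9 beside 52.7%. With no minimum it was 4 of 10 beside 11.9% of all 43346 identifiers, read or not. At a mean of 10 counts it was 4 of 10 beside 47.4%, and at 1000 it was 3 of 8 beside 35.7%. With TMM or DESeq2 factors it was 4 of 9 beside 52.8%. At 8-fold it was 3 of 9 beside 41.0%, and at 2-fold 7 of 9 beside 67.7%. The median log2 ratio of -1.04 was -1.02 with posterior means, -1.07 and -0.87 with pseudocounts of 0.1 and 10, -0.98 with no minimum or a mean of 10 counts, -1.16 with a mean of 1000, -0.76 with TMM and -0.72 with DESeq2 size factors; other TPM totals did not move it. Over all genes the median was 0.17 in TPM, 0.20 with TMM and 0.25 with DESeq2 factors. Ratios of single genes under these settings, added after seeing the data, kept their direction and side of 4-fold in 44 of 50 cases. Suz12 turned to 0.45 with TMM and 0.50 with DESeq2 factors, as its effective length changed between libraries. Hells came under 4-fold at a pseudocount of 10 (-1.49), and Dnmt3b passed it at 0.1 (4.12), with TMM (2.61) and with DESeq2 factors (2.63). By posterior mean TPM the share of the leading transcript was 31.0% instead of 100% in Dnmt3b, 20.9% instead of 37.0% in Dnmt3a (means of the libraries read) and 88.2% instead of 100% in Hells, and within 3 percentage points in the other 7 genes. No paired analysis was possible because the series has 1 group. With 13 pg of RNA and 1 library a pup, counts of 0 for Ezh2 and Eed limit reads in that library, not expression in the tissue.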
